A study of Arabidopsis thaliana with 4 samples.

Results

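Heat shock factors and heat shock proteins were followed in whole Arabidopsis thaliana seedlings exposed to 300 mM NaCl. Members were the genes whose symbol begins with HSF or HSP in a RefSeq gene table, which gave 40 genes. A member was kept if its probe lay well above background in either dye on at least 2 of the 4 arrays. By this rule 37 genes were kept, 16 transcription factors and 21 chaperones, out of 20454 genes measured. HSFA9, HSP21 and HSP23.6-MITO did not pass it: HSFA9 and HSP21 were above background on 0 arrays, and HSP23.6-MITO on 1. HSPRO2 shares the first letters but is no heat shock protein, and it was set apart.

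All plants were wild type of the ecotype Col-0, sampled whole at 14 days after germination and grown in short days of 8 h light at 22 °C. They were placed on filter paper wetted with the salt solution for 0 h, 2 h or 5 h. Each of the 4 2-colour arrays set salt RNA in Cy5 against 0 h RNA in Cy3, with 2 arrays for 2 h and 2 for 5 h, described as biological replicates, and no dye swap. Only salt samples carry a replicate number in the labels, and the 0 h RNA was therefore treated as a single control.

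Heat shock factors bind short repeated elements in promoters. Class A factors carry an activation motif, whereas class B factors lack it and several of them repress transcription. The genes they are best known to switch on encode molecular chaperones. HSP100 proteins pull aggregates apart, HSP90 proteins mature client proteins such as kinases and receptors, HSP70 proteins bind unfolded chains, HSP60 proteins form folding chambers in organelles, and small heat shock proteins hold unfolding proteins in a soluble state. In Arabidopsis several of the factors, among them HSFA6A, HSFA6B and HSFA3, are also known from responses to abscisic acid, salt and drought.

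Per channel, 70.5% to 72.4% of spots passed the scanner software's test against background, and 0 were saturated. Over the genes, which are no independent replicates, r was 0.981 for the ratios of both 2 h arrays, 0.987 for those of both 5 h arrays and 0.811 to 0.815 for arrays of different times. The 4 green leaf markers (RBCS1A, CAB1, PSBO1 and RCA) and the 4 root markers (CASP1, IRT1, EXPA7 and SHV2) were above background in the 0 h channel of every array. Values below are log2 ratios of salt over 0 h, centred on each array's median over the kept probes, and a change is the mean of 2 arrays ± limma's moderated SE. A gene was called where the adjusted p of limma's moderated test was under 0.05. The groups hold no seedlings put on paper wetted without salt. Effects of salt, transfer and time of day therefore cannot be told apart.

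After 2 h of salt, most heat shock factor transcripts rose. Of 16 factors 14 rose and 1, HSFA6A, fell, and 9 rose at least 2-fold. Across all genes 80.6% were called, so a call alone says little: 38.6% were called higher and 42% lower. In that background 13.4% were called at least 2-fold higher and 5.94% at least 2-fold lower. The median log2 change was 1.22 for the 16 factors and −0.03 for all genes. Because these are whole seedlings, a change in the share of cells that carry a transcript and a change in RNA per cell cannot be told apart.

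HSFA6B, a class A factor known as a mediator of abscisic acid signals in salt and drought, rose most of the 37 members. Its processed signal in the 0 h channel was 53.7 and 46.6 on the 2 h arrays and 62.7 and 74.8 on the 5 h arrays. In the salt channel it was 6356 and 6200.4 at 2 h and 11798 and 11104 at 5 h. A transcript just above background at 0 h was thus bright in every salt sample, and the channels did not come near each other on any array. The centred ratios were 7.004 and 7.17 at 2 h and 7.65 and 7.31 at 5 h, changes of 7.09 ± 0.10 (136-fold, adjusted p = 1.88e-05) and 7.48 ± 0.10 (178-fold, adjusted p = 1.16e-05). Among 18734 genes measured above background on both sides, it had rank 3 from the top at 2 h and rank 4 at 5 h. The size rests on a dim 0 h spot: with normexp background correction, an offset of 50 and loess the changes were 5.61 and 5.94.

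**Figure D1:**
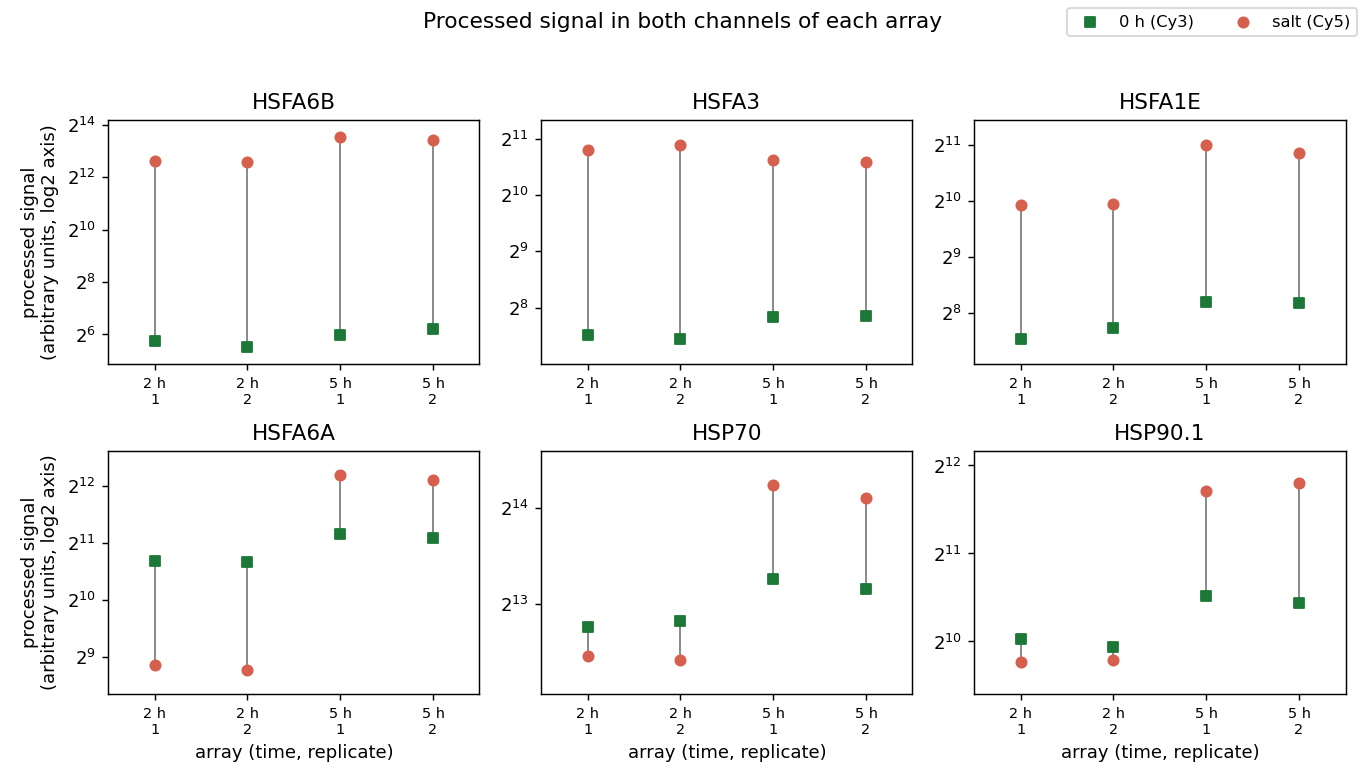
Processed signal (arbitrary units, log2 axis) of 4 factors and 2 chaperones on each array, with squares for the 0 h channel (Cy3), circles for the salt channel (Cy5) and a line joining the channels of an array. HSFA6B, HSFA3 and HSFA1E are brighter in salt on all 4 arrays, while HSFA6A, HSP70 and HSP90.1 lie below 0 h on both 2 h arrays and above it on both 5 h arrays. The vertical scale differs between panels, and probes are not compared with each other.

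HSFA6A, the close relative of HSFA6B, moved the other way first. Its 0 h signals were 1655 and 1632 on the 2 h arrays and 2279.9 and 2172 on the 5 h arrays, against salt signals of 462 and 437 at 2 h and 4692 and 4439.9 at 5 h. The ratios were −1.73 and −1.79 at 2 h and 1.13 and 1.12 at 5 h, so that the arrays of each time agreed closely and lay on opposite sides of 0. It fell 3.38-fold at 2 h (log2 change −1.76 ± 0.030, adjusted p = 2.55e-05) and stood 2.19-fold above 0 h at 5 h (1.13 ± 0.030, adjusted p = 3.37e-05). HSFA6A was the single factor called lower at 2 h, and at 5 h it was called higher like the other 15.

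HSFA3, a factor that the DREB2 proteins are known to activate in drought and heat, had ratios of 3.40 and 3.57 at 2 h and 2.88 and 2.83 at 5 h. It was high at both times and lower at 5 h than at 2 h on every array. Its changes were 3.48 ± 0.052 (11.2-fold, adjusted p = 2.03e-05) and 2.85 ± 0.052 (7.22-fold, adjusted p = 1.69e-05). With normexp and loess they were 7.90-fold and 5.17-fold. HSFA2, which sustains the heat response and is itself induced by the HSFA1 factors, had ratios of 1.95 and 1.92 at 2 h and 2.54 and 2.70 at 5 h. It rose 3.81-fold at 2 h and 6.13-fold at 5 h (adjusted p = 5.25e-05 and 1.75e-05), and the 5 h arrays lay above the 2 h arrays. HSFA7A, another heat-induced class A factor, had ratios of 1.03 and 0.94 at 2 h and 0.95 and 1.04 at 5 h, which overlap between the times. It rose 1.98-fold and 1.99-fold (adjusted p = 0.000166 and 9.83e-05).

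The HSFA1 group, the constitutive starters of the heat response, did not move as one. HSFA1E had ratios of 2.52 and 2.33 at 2 h and 2.90 and 2.76 at 5 h, a 5.36-fold and a 7.10-fold rise (adjusted p = 6.11e-05 and 2.61e-05). HSF1, also named HSFA1A, changed by 0.54 ± 0.035 at 2 h and 0.82 ± 0.035 at 5 h, and HSFA1D by 0.39 ± 0.029 and 0.44 ± 0.029. HSF3, also named HSFA1B, had ratios of 0.08 and 0.11 at 2 h and 0.38 and 0.40 at 5 h. Thus HSFA1E rose more than 5-fold while the changes of the other 3 stayed below 2-fold at both times. At 2 h the rise of HSFA1E was 4.95-fold without centring and 4.06-fold with normexp and loess. The 2 h call of HSF3 (0.09 ± 0.027, adjusted p = 0.0339) was lost whichever single array was left out (0.08 to 0.11). Its sign turned without centring (−0.021) and without a filter on dim probes (−0.045). The second probe of HSF3 gave 0.29 at 2 h and 0.50 at 5 h.

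HSF A4A (HSFA4A), known from oxidative and salt stress, had ratios of 1.36 and 1.24 at 2 h and 1.12 and 1.06 at 5 h, rises of 2.46-fold and 2.13-fold (adjusted p = 8.5e-05 and 7.36e-05). HSFA8, a factor tied to redox responses, changed by 0.33 ± 0.040 at 2 h and 0.68 ± 0.040 at 5 h. Both were called at both times, though the 2 h call of HSFA8 was lost without a filter on dim probes (0.19). The class C factor HSFC1 was among the stronger responders, with ratios of 2.57 and 2.37 at 2 h and 2.66 and 2.55 at 5 h. It rose 5.54-fold and 6.08-fold (adjusted p = 5.51e-05 and 2.88e-05), and its second probe gave changes of 2.51 and 2.58.

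Among the class B factors, HSFB2A, a repressor, had ratios of 1.63 and 1.51 at 2 h and 2.48 and 2.48 at 5 h. HSF4, also named HSFB1 and likewise a repressor of heat shock genes, had ratios of 1.36 and 1.26 at 2 h and 1.49 and 1.40 at 5 h. HSFB2A therefore rose 2.97-fold and then 5.57-fold (adjusted p = 5.25e-05 and 1.43e-05), whereas HSF4 rose 2.48-fold and 2.72-fold (adjusted p = 8.28e-05 and 3.83e-05). HSFB3 lay near background, with 0 h signals of 20.4 to 46.1 above background on 3 of 4 arrays. Its ratios were 1.46 and 0.84 at 2 h and 0.75 and 0.92 at 5 h, changes of 1.15 ± 0.17 and 0.83 ± 0.17. At 2 h it changed by 0.35 with normexp and loess, and without the second 5 h array its 5 h value of 0.75 was not called.

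HSFB4, known from asymmetric cell divisions in the root, had ratios of 0.04 and 0.14 at 2 h and 0.21 and 0.22 at 5 h. It was not called at 2 h (0.09 ± 0.036, adjusted p = 0.076) and was called at 5 h (0.22 ± 0.036, adjusted p = 0.00609). Without the first 2 h array it was called at 2 h (0.14), and without the second 5 h array its 5 h value of 0.21 was not, nor that of 0.099 without a filter on dim probes. Of the 4 root markers 3 fell and IRT1 rose at both times, and the log2 ratio of their summed signals was −0.52 and −0.57 on the 2 h arrays and −1.91 and −1.998 on the 5 h arrays. Their part in the HSFB4 values was not tested.

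**Figure D2:**
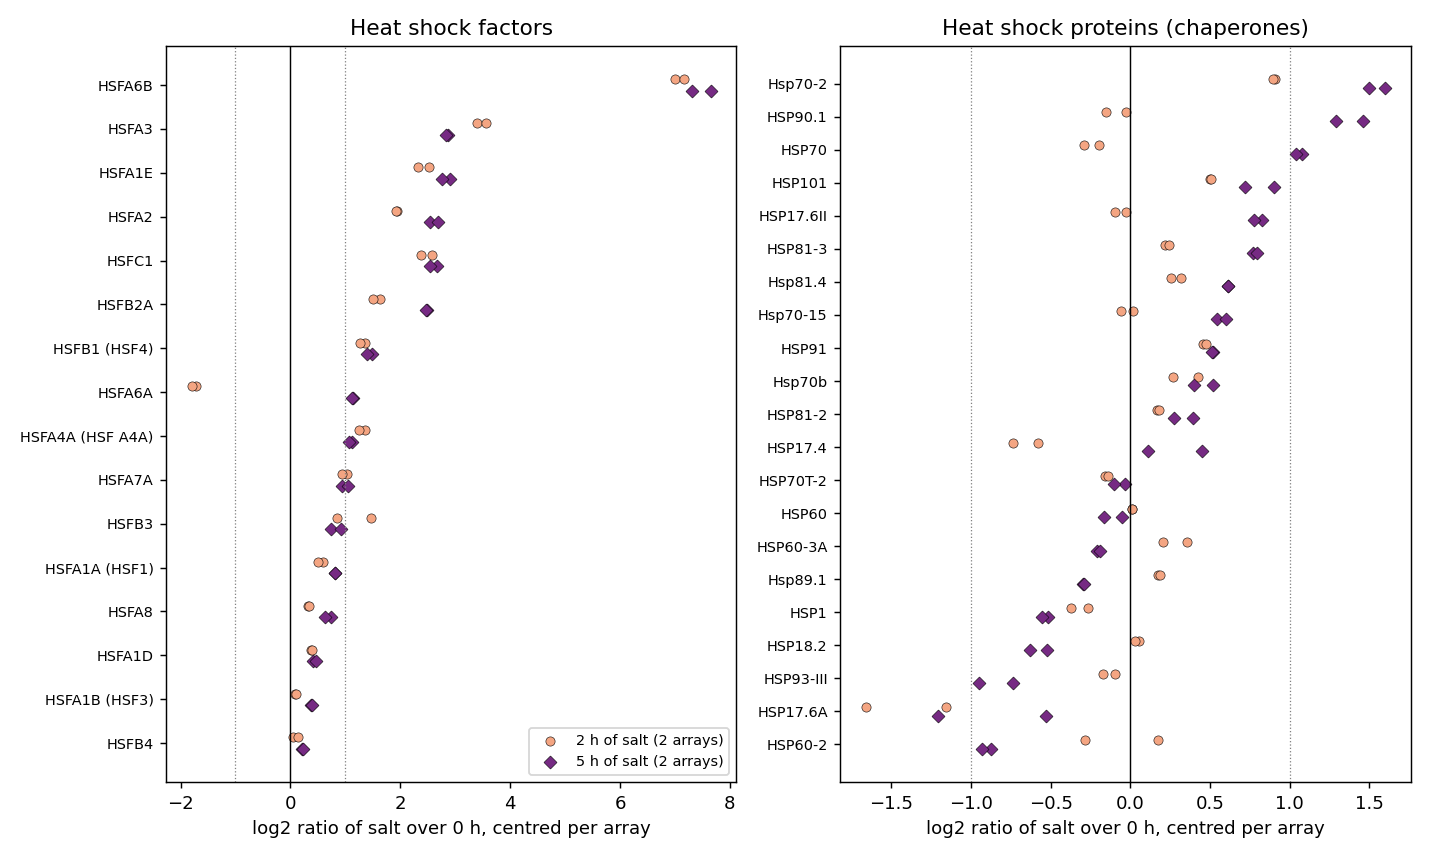
Centred log2 ratio of salt over 0 h for each of the 37 kept genes on each array, factors on the left and chaperones on the right, ordered by the 5 h change. Circles are the 2 arrays of 2 h, diamonds the 2 arrays of 5 h, and dotted lines mark 2-fold. The horizontal scales differ: HSFA6B sits near 7, and the chaperone ratios lie between −1.66 and 1.60.

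Chaperone transcripts showed small changes in both directions at 2 h. Of 21 chaperones 9 were called higher, 5 lower and 7 not called, against 80.6% of all genes called in either direction, and nothing is read from that count. None rose at least 2-fold, and 1, HSP17.6A, fell at least 2-fold, where 19.4% of all genes changed that much in either direction. Their median change was 0.01. Without centring this median was −0.10, since centring moves every ratio by 0.09 to 0.12.

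At 5 h the chaperone changes ran from −0.90 to 1.55, against −1.41 to 0.90 at 2 h. Their median size was 0.57 at 5 h and 0.23 at 2 h, where that of all genes was 0.60 and 0.40. Of 21, 11 were called higher and 7 lower, against 86.7% of all genes called, and 3 (Hsp70-2, HSP90.1 and HSP70) rose at least 2-fold. HSP70 was just under this size without centring (0.96). All 16 factors were called higher at 5 h, and 9 of them rose at least 2-fold. Of all genes 41.5% were called higher, 45.2% lower and 16.9% at least 2-fold higher at 5 h. The median change was 0.33 for chaperones, 1.11 for factors and −0.04 for all genes.

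HSP70 proteins bind unfolded chains with the help of J-domain partners. Of the 6 HSP70 genes, HSP70 and Hsp70-2, both cytosolic, rose at least 2-fold at 5 h. HSP70, a heat-inducible cytosolic member, had 0 h signals of 6987 and 7257 on the 2 h arrays and 9822 and 9129 on the 5 h arrays, and salt signals of 5634 and 5483 at 2 h and 19400 and 17576 at 5 h. Its ratios were −0.19 and −0.29 at 2 h and 1.07 and 1.04 at 5 h, so salt lay below 0 h on both 2 h arrays and about 2-fold above it on both 5 h arrays. The changes were −0.24 ± 0.037 (1.18-fold lower, adjusted p = 0.00528) and 1.06 ± 0.037 (2.08-fold higher, adjusted p = 5.96e-05). Hsp70-2 had ratios of 0.91 and 0.89 at 2 h and 1.50 and 1.60 at 5 h. It rose 1.87-fold at 2 h and 2.92-fold at 5 h (adjusted p = 0.000139 and 2.57e-05). At the other end of the family was HSP70T-2, with changes of −0.15 ± 0.031 at 2 h and −0.07 ± 0.031 at 5 h, the latter not called. In all, changes of the HSP70 genes ran from −0.24 to 0.90 at 2 h, with 3 called higher and 2 lower, and from −0.07 to 1.55 at 5 h, with 5 called higher and none lower. Of all genes 38.6% were called higher and 42% lower at 2 h, and 41.5% and 45.2% at 5 h. Hsp70-2 shares sequence with HSC70-1 and other cytosolic copies, so it is uncertain as a single gene, and the 3 probes of HSP91 gave 0.47, −0.21 and −0.003 at 2 h.

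HSP90 chaperones complete the folding of signalling proteins and hold heat shock factors inactive. HSP90.1, the heat-inducible cytosolic member, had ratios of −0.15 and −0.03 at 2 h and 1.29 and 1.46 at 5 h. It was not called at 2 h (−0.09 ± 0.060, adjusted p = 0.231) and was 2.59-fold higher at 5 h (1.37 ± 0.060, adjusted p = 0.000103). Without centring and without a filter on dim probes its 2 h value was called lower (−0.21 and −0.23), and its second probe gave 0.20 at 2 h and 1.41 at 5 h. Hsp89.1, the mitochondrial member, went from 0.18 ± 0.026 at 2 h to −0.29 ± 0.026 at 5 h and was called at both. Its second probe gave −0.03 at 2 h and −0.18 at 5 h, and without centring its 2 h value was not called (0.06). The constitutive cytosolic genes HSP81-2, HSP81-3 and Hsp81.4 changed by 0.33 to 0.78 at 5 h. These 3 genes are nearly identical in sequence and uncertain as single genes, and the second probe of HSP81-2 gave −0.23 at 2 h and −0.03 at 5 h.

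The HSP100 pair moved apart and the HSP60 genes fell or did not pass the test at 5 h. HSP101, the cytosolic disaggregase required for acquired heat tolerance, had ratios of 0.50 and 0.51 at 2 h and 0.90 and 0.72 at 5 h, changes of 0.50 ± 0.053 and 0.81 ± 0.053 (adjusted p = 0.00176 and 0.000315). HSP93-III, a chloroplast stroma protein of the import motor, had ratios of −0.17 and −0.10 at 2 h and −0.73 and −0.95 at 5 h. It was not called at 2 h and fell 1.79-fold at 5 h (adjusted p = 0.000502). None of the 3 HSP60 genes, which encode mitochondrial chaperonins, was called higher at 5 h, where 41.5% of all genes were. HSP60-2 had ratios of 0.18 and −0.29 at 2 h, on either side of 0, and −0.87 and −0.93 at 5 h, a 1.87-fold fall (adjusted p = 0.00308). HSP60-3A was called higher at 2 h (0.28 ± 0.046) and lower at 5 h (−0.20 ± 0.046), and HSP60 was not called at either time (0.01 ± 0.038 and −0.11 ± 0.038). HSP60 was called lower at 5 h without centring (−0.20, adjusted p = 0.0092) and from the deposited series table (−0.11, adjusted p = 0.0483).

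Of the 5 small heat shock proteins, with HSP1 placed among them although its family is uncertain, none was called higher at 2 h and 3 were called lower. At 5 h 1 was called higher and 3 lower. Of all genes 38.6% were called higher and 42% lower at 2 h, and 41.5% and 45.2% at 5 h. Nothing is read from the counts of these 5 genes. HSP17.6A, a class II protein of the cytosol, had 0 h signals of 113 to 161 against salt signals of 46.8 and 33.4 at 2 h and 105 and 60.4 at 5 h. Its ratios were −1.16 and −1.66 at 2 h and −0.53 and −1.21 at 5 h, which overlap between the times. It fell 2.65-fold at 2 h (−1.41 ± 0.22, adjusted p = 0.00553) and 1.82-fold at 5 h (−0.87 ± 0.22, adjusted p = 0.0215). The 2 h call was lost without the second 2 h array (−1.16) and the 5 h call without the second 5 h array (−0.53), and with normexp and loess the 2 h change was −0.63. HSP17.6II, its class II neighbour and close copy, had ratios of −0.09 and −0.03 at 2 h and 0.83 and 0.77 at 5 h, a 1.74-fold rise at 5 h (adjusted p = 9.18e-05). With normexp and loess its 5 h change was 0.30 and its difference between the times 0.35, in place of 0.80 and 0.86. HSP17.4, of class I, was lower at 2 h (−0.66 ± 0.098, adjusted p = 0.00504), where its salt spot was above background on 1 of 2 arrays. At 5 h it was not called (0.28 ± 0.098). The remaining pair, HSP18.2 of class I and HSP1, were both called lower at 5 h (−0.57 ± 0.038 and −0.54 ± 0.039).

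Small heat shock proteins are also known as abundant products of maturing seeds. The small heat shock proteins did not move as one. HSP17.6A and HSP1 were called lower at both times, HSP17.4 at 2 h only and HSP18.2 at 5 h only, whereas HSP17.6II was called higher at 5 h. All 6 measured seed markers, of 7 listed, were called at least 2-fold lower at both times. The log2 ratio of their summed signals was −6.54 and −7.04 on the 2 h arrays and −4.79 and −4.70 on the 5 h arrays, from 0 h sums of 30692 to 43114 to salt sums of 215 to 309 at 2 h and 1411 to 1466 at 5 h. At 2 h OLEO1, OLEO2 and PER1 were not well above background in salt, and at 5 h SESA1 was not. The part of these transcripts in the small heat shock protein values was not tested.

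Factors and chaperones were set side by side on each array. The median ratio of the 16 factors was 1.36 and 1.09 on the 2 h arrays and 1.13 and 1.09 on the 5 h arrays. The median ratio of the 21 chaperones was 0.05 and 0.01 on the 2 h arrays and 0.39 and 0.45 on the 5 h arrays. The factor median therefore lay above the chaperone median on all 4 arrays, and the chaperone median was higher at 5 h than at 2 h on both. Pooled over both times, the SD of the class median within a time was 0.13 for factors and 0.036 for chaperones. The factor medians lay further apart on the 2 h arrays than on the 5 h arrays. At 2 h, 10 of 16 factors and 1 of 21 chaperones changed at least 2-fold, and at 5 h 9 and 3 did, where 19.4% and 30% of all genes did. No test was made over the classes. These counts describe only genes with an HSF or HSP symbol, and leave out chaperone loci without such a name.

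**Figure D3:**
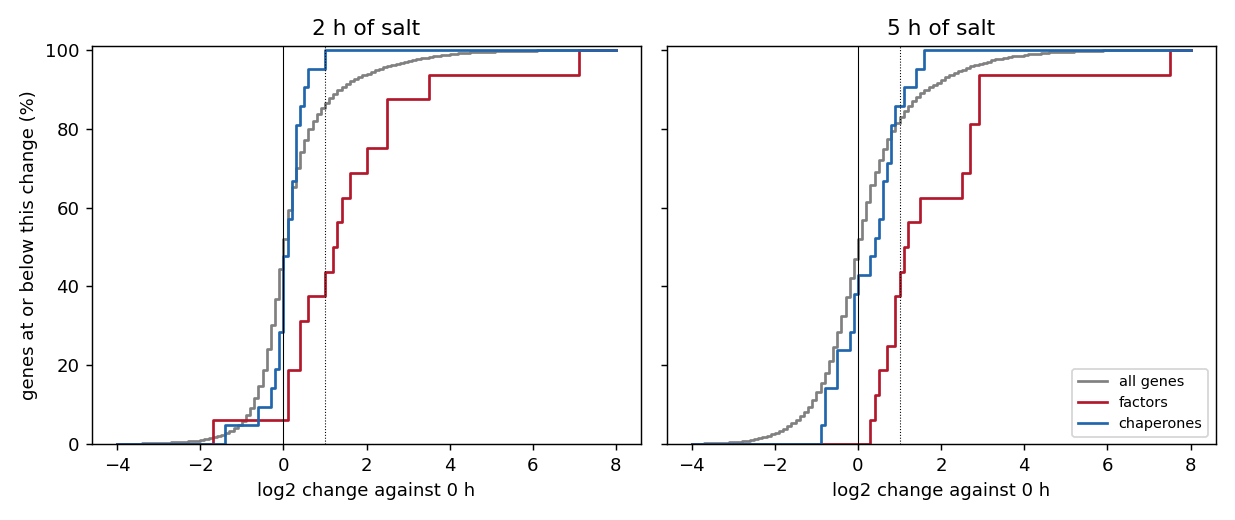
Percent of genes (vertical axis) at or below each log2 change against 0 h (horizontal axis, steps of 0.1), for all genes in grey, the 16 factors in red and the 21 chaperones in blue, at 2 h on the left and 5 h on the right. The factors other than HSFA6A at 2 h lie to the right of most genes at both times. At 2 h the chaperone median of 0.01 is near that of all genes (−0.03), but the median size of change is smaller (0.23 against 0.40). The chaperones reach a median of 0.33 at 5 h.

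In the comparison of 5 h with 2 h of salt, a dye bias of a gene cancels as far as it is the same on all arrays, which was not tested. In this comparison 9 of 16 factors were called, 7 higher and 2 lower at 5 h, and 15 of 21 chaperones, 9 higher and 6 lower, against 68.9% of all genes called (31% higher, 37.9% lower). A single factor, HSFA6A, differed at least 2-fold (2.89 ± 0.043, 7.39-fold, adjusted p = 0.000288), as did 2 chaperones, while 5.76% of all genes were called at least 2-fold higher and 6.93% at least 2-fold lower. Those chaperones were HSP90.1 (1.46 ± 0.085, 2.76-fold, adjusted p = 0.000721) and HSP70 (1.299 ± 0.052, 2.46-fold, adjusted p = 0.000415). Among the factors, HSFB2A (0.91 ± 0.056) and HSFA2 (0.68 ± 0.069) were higher at 5 h, and HSFA3 (−0.63 ± 0.074) and HSF A4A (−0.21 ± 0.059) lower.

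HSFA6B, which led at both times, was not called between them (0.39 ± 0.14, adjusted p = 0.075). It was called without the second 5 h array (0.56), and so was HSFB3 without the second 2 h array (−0.63). The call of HSF A4A was lost without the first 2 h array (−0.15) or either 5 h array (−0.24 and −0.18). That of HSF1 was lost without either 5 h array (0.27 and 0.28), and that of HSFA1E without the second 2 h array (0.31) or the first 5 h array (0.33). Without a filter on dim probes the calls of HSF A4A (−0.19), HSF1 (0.30), HSF3 (0.32), HSFA1E (0.43) and HSFA8 (0.37) were lost, and that of HSF A4A also without centring (−0.19) and with normexp and loess (−0.11). Among the 6 chaperones called lower at 5 h than at 2 h were HSP60-2 (−0.85 ± 0.17), HSP93-III (−0.71 ± 0.091) and HSP18.2 (−0.62 ± 0.054).

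**Figure D4:**
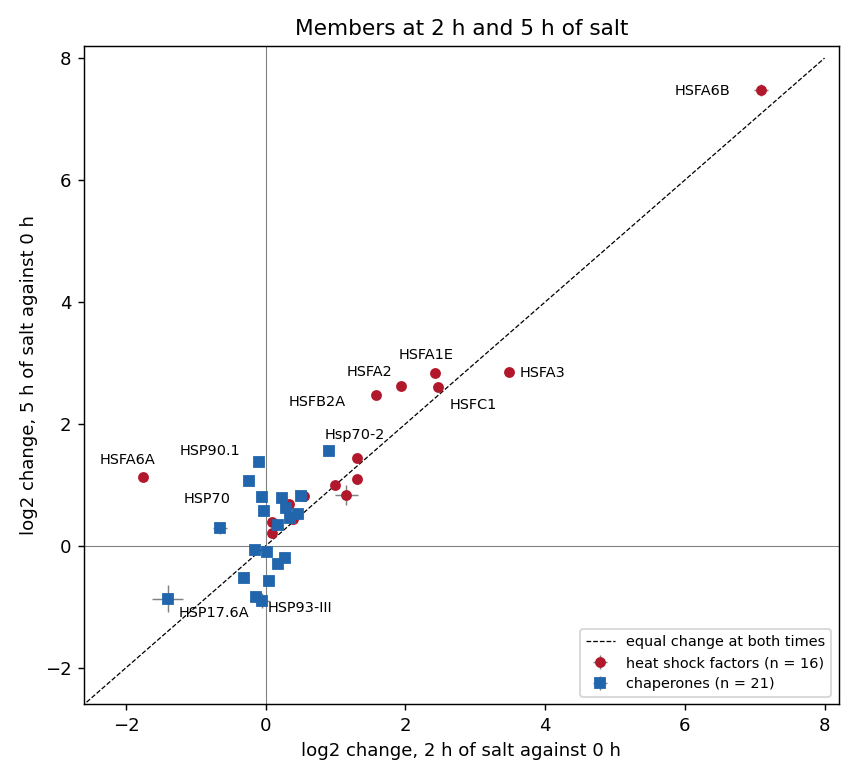
Log2 change at 5 h (vertical axis) against that at 2 h (horizontal axis) for the 16 factors (circles) and 21 chaperones (squares), with bars of ±1 moderated SE and a dashed line of equal change. HSFA6A, HSP70 and HSP90.1 lie far above the line, HSFA3 below it, and most chaperones within 1 of 0 at both times.

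A further 4 heat shock factor genes are listed under other symbols, and 3 of them were called higher at 2 h and all 4 at 5 h, against 38.6% and 41.5% of all genes. RHA1 (HSFA4C) changed by 0.75 ± 0.038 at 2 h and 0.99 ± 0.038 at 5 h, and AT-HSFB2B, a repressor like HSFB2A, by 0.86 ± 0.032 and 1.46 ± 0.032. AT-HSFA5 was not called at 2 h (0.07 ± 0.054) and changed by 0.59 ± 0.054 at 5 h. AT-HSFA7B, the single one of these called at least 2-fold higher at 2 h, changed by 1.295 ± 0.42 (adjusted p = 0.0497) and 2.64 ± 0.42, from a 0 h spot above background on 1 of 4 arrays. With these 4, 17 of 20 measured factors were called higher and 1 lower at 2 h. All 20 were called higher at 5 h, 11 of them at least 2-fold, against 16.9% of all genes. AT-HSFA7B passed the filter only through its salt spots, so nothing is read from its part in these counts.

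Of 11 further chaperone genes with other symbols 3 were called higher and 4 lower at 2 h, and 5 higher and 6 lower at 5 h. Of all genes 38.6% were called higher and 42% lower at 2 h, and 41.5% and 45.2% at 5 h. ATHSP22.0, a small heat shock protein of the endoplasmic reticulum, was above background in the 0 h channel on 4 of 4 arrays and in salt on none. Its measured changes were −2.63 at 2 h (adjusted p = 0.000114) and −2.17 at 5 h (adjusted p = 0.000108), and they rest on these dim salt spots. As bounds, which were not tested, ATHSP22.0 was at least 3.30-fold lower at 2 h and at least 2.22-fold lower at 5 h. These bounds set its 0 h signal against the dimmest signal well above background on each array. SHD, the HSP90 of the endoplasmic reticulum, went from 0.30 ± 0.074 at 2 h to −0.78 ± 0.074 at 5 h, a difference of −1.07 ± 0.10 (adjusted p = 0.00223). The chloroplast HSP90 CR88 changed by −0.45 ± 0.035 at 5 h and the mitochondrial HSP70 gene MTHSC70-2 by 0.74 ± 0.027. A further 15 listed loci of the chaperone families carry no name in the gene table. Of these 9 were called higher and 5 lower at 2 h, and 8 higher and 4 lower at 5 h. At 2 h 2 of them were at least 2-fold higher and 1 at least 2-fold lower, and at 5 h 5 were at least 2-fold higher. Of all genes 13.4% were called at least 2-fold higher at 2 h and 16.9% at 5 h. The largest changes of these loci, 1.53 at 2 h and 2.49 at 5 h, lay above those of the 21 chaperones (0.90 and 1.55). Nothing is read from the counts of these loci or of the 11 further chaperones.

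Among 11 partner genes of the heat shock response, 5 were called higher and 3 lower at 2 h, and 7 higher and 1 lower at 5 h. Of all genes 38.6% were called higher and 42% lower at 2 h, and 41.5% and 45.2% at 5 h. The 3 called lower at 2 h were ROF2 (−0.47), HSA32 (−0.24) and BAG6 (−0.18). At 5 h HSA32 (0.71) and BAG6 (0.27) were called higher, and ROF2 (−0.02) was not called. DREB2A, the dehydration factor known to act upstream of HSFA3, had ratios of 4.71 and 4.79 at 2 h and 4.70 and 4.65 at 5 h, a 26.8-fold and a 25.6-fold rise (adjusted p = 1.26e-05 and 9.22e-06). DREB2C, a related factor, rose by 4.08 ± 0.030 and 5.04 ± 0.030. At each time both changes were larger than those of every heat shock factor except HSFA6B. GolS1, a galactinol synthase controlled by heat shock factors, rose by 2.27 ± 0.043 and 2.36 ± 0.043. APX2, a peroxidase controlled by HSFA2, rose by 2.79 ± 0.16 and 2.78 ± 0.16. The 0 h spot of APX2 was above background on 1 of 4 arrays, so it passed the filter only through its salt spots. MBF1C, a heat response coactivator, rose by 0.51 ± 0.027 and 1.05 ± 0.027. HSBP, which binds factors and dampens their activity, was not called at 2 h (−0.04 ± 0.12) and fell to −0.67 ± 0.12 at 5 h.

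Cochaperones assist HSP70 and HSP90. Of 13 cochaperone genes 7 were called higher and 2 lower at 2 h, none of them at least 2-fold, and 7 higher and 3 lower at 5 h. Of all genes 80.6% were called at 2 h and 86.7% at 5 h, and 16.9% at least 2-fold higher at 5 h. Nothing is read from the cochaperone counts. The 2 that rose at least 2-fold at 5 h were Fes1A, a nucleotide exchange factor of cytosolic HSP70 (0.68 ± 0.028 at 2 h, 1.49 ± 0.028 at 5 h), and J2, a J-domain protein (0.98 ± 0.039 and 1.44 ± 0.039). HSPRO2, the gene set apart by its name, had ratios of 2.98 and 3.11 at 2 h and 3.64 and 3.71 at 5 h.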

How the data were processed

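Per the file headers, the deposited array files hold Cy3 and Cy5 intensity from Feature Extraction 11.5.1.1 after background subtraction and dye normalization, median spot and background intensity, and a log10 ratio of the processed signals. The submitters' processing notes name version 9.3.2.1. A deposited series table holds log2 ratios, which followed each array's own ratio (r from 0.997 to 1.00 across probes) with a shift of 0.0858 to 0.118 whose basis is not stated.

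The log2 ratio of processed Cy5 over Cy3 signal was computed per spot, without control spots and 14 to 19 outlier spots per array. Each array was centred on the median of the kept probes (−0.12 to −0.09 before). Of 43603 probes 34348 matched 1 gene by RefSeq accession in a table of TAIR10.1 genes, used for names only, since the arrays' own build is not given in the sources used here. A probe well above background in either channel on at least 2 arrays was kept (32636), and the brightest stood for its gene.

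limma 3.58.1 in R 4.3.3 fitted a mean per time over all genes (2 residual and 1.83 prior degrees of freedom), with Benjamini-Hochberg adjustment over all genes. Variation of the 0 h sample does not enter the tests against 0, where a salt effect and a dye bias cannot be told apart. The SE pools both times. All factors were named, and chaperones that were called with a log2 change of at least 1 in any comparison; other chaperones are given by family with examples. Members and lists were chosen with earlier results of these data known. Alternatives were no centring, normexp with loess, the series table, other filters, the mean of probes, a replicate term and leaving out each array.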

Additional observations from a re-analysis of the deposited data

Results flagged for a closer look

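The 5 h change differed from the 2 h change by limma's test in 24 of 37 members, against 68.9% of all genes, and nothing is read from that count. In 4 of these the calls at the 2 times pointed in opposite directions: HSFA6A (5 h minus 2 h, 2.89) and HSP70 (1.299) went from lower to higher, and Hsp89.1 (−0.47) and HSP60-3A (−0.48) from higher to lower. The share of all genes with opposite calls was not counted. The 2 h rise of Hsp89.1 was not seen with its second probe (−0.03) and was not called without centring.

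Among the other factors, HSFB2A (0.91), HSFA2 (0.68), HSFA1E (0.41), HSFA8 (0.35), HSF3 (0.30) and HSF1 (0.27) were higher at 5 h than at 2 h. HSFA3 (−0.63) and HSF A4A (−0.21) were lower.

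Among the other chaperones, HSP90.1 (1.46), HSP17.4 (0.94), HSP17.6II (0.86), Hsp70-2 (0.65), Hsp70-15 (0.59), HSP81-3 (0.55), Hsp81.4 (0.33) and HSP101 (0.31) were higher at 5 h. HSP60-2 (−0.85), HSP93-III (−0.71), HSP18.2 (−0.62) and HSP1 (−0.22) were lower. Each value is a difference of 2 means of 2 arrays, on the log2 scale. The HSP17.4 difference was 0.28 with normexp and loess.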

How the results depend on the processing

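Of 657 alternative values of the 16 factors and of Hsp70-2, HSP90.1, HSP70 and HSP17.6A, 620 stayed on their side of the threshold with no called value changing sign, 25 lost the call, 10 gained one and 2 called values changed sign: HSF3 at 2 h was −0.021 without centring and −0.045 without a filter on dim probes. Values near 0 that were not called also changed sign, those of HSFB4 at 2 h without centring (−0.021) and without a filter (−0.045), of HSP90.1 at 2 h with the mean of probes (0.055), and of HSFA7A between the times with normexp and loess (−0.056) and without the second 2 h array or the second 5 h array (−0.040 each). Without centring 8 factors and 2 chaperones rose at least 2-fold at 5 h, the chaperone median was −0.10 at 2 h and 0.24 at 5 h, and the share of calls of all genes that were higher at 2 h went from 47.9% to 38.9%. Without a filter, which tests 25408 genes, the median at 2 h was −0.13 for chaperones and 1.09 for factors, and 0.22 for chaperones at 5 h, with 38.4% of calls higher at 2 h. With normexp and loess 0 chaperones changed at least 2-fold at 2 h, the chaperone median between the times was 0.23, and 476 genes in place of 1215 were at least 2-fold lower at 2 h. With bright probes only the chaperone median at 5 h was 0.40, and with the mean of probes it was 0.28 at 5 h and 0.27 between the times. When each array was left out in turn, the count of chaperones changed at least 2-fold ranged from 0 to 1 at 2 h and from 2 to 4 between the times, with 0 and 4 both without the second 2 h array. The chaperone median then ranged from 0.0105 to 0.0545 at 2 h, from 0.33 to 0.45 at 5 h and from 0.15 to 0.22 between the times. The cause of these shifts was not tested. With the replicate number as a block, 10 factors and 1 chaperone changed at least 2-fold at 2 h and 9 and 3 at 5 h, as without it, while HSF3 lost its call at 2 h (0.095) and HSP17.6A gained one between the times (0.54). Deviations of same-numbered arrays correlated at 0.0929, so the numbers were not taken as pairs. All 4 arrays share 1 slide and 1 scan, and a block for these could not be fitted. Signal over background limits HSFA6B, HSFB3, HSP17.4 and HSP17.6II, dim at 0 h, and HSP17.6A, dim in salt.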
